A study of Mus musculus with 24 samples.

Results

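Hepatocyte nuclear receptors were followed here as 10 genes, Hnf4a, Nr1i2, Nr1i3, Nr5a2, Rxra, Thrb, Esr1, Esrra, Ppard and Pparg, chosen by symbol out of the 22355 genes in the liver count table. All 10 were in the table, and all 10 passed the filter on low counts. The study gave diet-induced obese (DIO) mice IUB288 or vehicle for 4 d. IUB288 is a compound known by its code name, and the study's title describes the treatment as glucagon receptor agonism followed by withdrawal. Livers of 8 mice were taken 4 h after the last IUB288 injection, those of 8 others 22 h after it, and those of 8 vehicle mice 22 h after the last vehicle injection. All mice were therefore obese on a diet, no lean group was used here, and strain, sex, age and dose are not given in the labels. No vehicle livers were taken at 4 h, so in the 4 h comparison the drug and the time since injection cannot be told apart. The 2 comparisons with vehicle share the same 8 vehicle livers.

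Nuclear receptors are transcription factors that bind DNA at AGGTCA-like motifs and, in most cases, are switched by small lipophilic ligands. HNF4A keeps hepatocytes differentiated, LRH-1 (Nr5a2) controls bile acid and cholesterol genes, and PXR (Nr1i2) and CAR (Nr1i3) sense drugs and induce the enzymes that clear them. RXRA is the shared partner with which PXR, CAR, the thyroid hormone receptors and the PPARs form heterodimers, while HNF4A works as a homodimer and LRH-1 as a monomer. Glucagon raises cyclic AMP in hepatocytes and so activates CREB, which binds cyclic AMP response elements of the letters TGACGTCA.

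Start-site sequence was taken from RefSeq (GRCm38.p6) as windows of 250 bases before to 50 bases after each annotated start, of which the 10 genes have 17. The stretches below are shown because these 4 genes hold the highest level (Hnf4a), the largest change (Nr1i3), the called change most alike at 4 h and 22 h (Nr5a2) and the shared partner (Rxra). Each is printed 5′ to 3′ on the strand of its gene, without bases that lie in an annotated exon or past the 5′ edge of the RefSeq gene where that begins before the start site, and capitals mark the motifs found. The Hnf4a stretch (chr2:163506607-163506807, plus strand) ends 50 bases before the start site of window 1. Hnf4a also has a window 2 (chr2:163546905-163547204), which is not printed, and which start these livers used was not tested. The Nr1i3 stretch (chr1:171213720-171213933, plus strand) ends 37 bases before its start. The Nr5a2 stretch (chr1:136960449-136960698, minus strand, window 1) and the Rxra stretch (chr2:27709042-27709291, plus strand, window 2, in an intron of Rxra) end 1 base before theirs. Window 2 of Nr5a2 and window 1 of Rxra hold none of the motifs and are not printed.
Hnf4a: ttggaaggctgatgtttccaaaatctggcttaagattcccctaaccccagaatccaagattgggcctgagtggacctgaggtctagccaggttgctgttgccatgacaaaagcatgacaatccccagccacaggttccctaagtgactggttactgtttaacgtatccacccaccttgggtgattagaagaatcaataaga
Nr1i3: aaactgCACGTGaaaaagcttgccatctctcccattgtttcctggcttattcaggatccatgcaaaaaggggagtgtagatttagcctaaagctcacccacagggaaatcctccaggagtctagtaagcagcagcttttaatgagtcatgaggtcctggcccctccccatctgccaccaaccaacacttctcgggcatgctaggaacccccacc
Nr5a2: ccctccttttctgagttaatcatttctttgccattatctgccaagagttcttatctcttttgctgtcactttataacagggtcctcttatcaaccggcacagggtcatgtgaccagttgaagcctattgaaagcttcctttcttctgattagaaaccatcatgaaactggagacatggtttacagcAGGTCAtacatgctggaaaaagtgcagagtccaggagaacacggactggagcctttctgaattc
Rxra: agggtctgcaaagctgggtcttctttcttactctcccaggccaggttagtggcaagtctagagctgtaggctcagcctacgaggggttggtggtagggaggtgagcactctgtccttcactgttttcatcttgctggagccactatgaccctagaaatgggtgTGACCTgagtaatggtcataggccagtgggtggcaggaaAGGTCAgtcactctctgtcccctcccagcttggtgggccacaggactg

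The 4 fixed motifs were searched on both strands over the whole windows, and a direct repeat of AGGTCA with 0 to 5 bases between the copies was searched as well. The core motif AGGTCA was found in 5 of the 17 windows, belonging to Nr5a2, Rxra, Thrb and Pparg, and in 16.3% of all 32851 RefSeq windows. In Nr5a2 it lies 64 to 59 bases before the start, and in Rxra window 2 it lies on the minus strand at 87 to 82 bases and on the plus strand at 48 to 43 bases before the start. The E-box CACGTG, to which clock factors bind, was found in 2 windows, those of Nr1i3 (244 to 239 bases before the start) and Thrb, and in 7.15% of all windows. TGACGTCA (1.79% of all windows), TCAAGGTCA, the extended site of LRH-1 and the ERRs (0.423%, and it contains AGGTCA), and the direct repeat (0.0852%) were in none of the 17 windows. A match is a description of the letters, and an absence says only that these letters are not in these windows.

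The libraries held 14 to 44.1 M counts each. Hepatocyte marker genes were strong in all of them: albumin (Alb) lay between 34806 and 84292 CPM (read counts brought to a common library total with TMM factors). The 10 hepatocyte markers summed to 71248 to 111716 CPM in vehicle livers, 61969 to 91364 at 4 h and 48976 to 78185 at 22 h. Calls among marker genes are to be set against all genes, of which 22.5% were called lower than vehicle at 4 h and 19.2% at 22 h. The shares called higher were 21.7% and 17.6%. Of the 10 hepatocyte markers, 3 were higher and 6 lower at 4 h, and 4 higher and 5 lower at 22 h. Of 9 Kupffer cell and macrophage markers tested, 3 were lower than vehicle at 4 h and 6 at 22 h, of 10 stellate cell and fibroblast markers 6 and 9, and of 9 endothelial markers 3 and 9. Their summed levels ran from 288 to 963, 729 to 1351 and 309 to 611 CPM in vehicle livers, and from 101 to 483, 223 to 676 and 155 to 383 CPM at 22 h. The vehicle maxima of 1351 and 611 CPM are replicate 1, and the next were 1095 and 569. Without it 7 and 9 of the stellate cell and fibroblast markers and 3 and 9 of the endothelial markers were lower. Of 7 bile duct cell (cholangiocyte) markers, 3 were lower at 4 h and 2 at 22 h, and of 9 T, NK and B cell markers 4 and 6. Without replicate 1 these counts were 3 and 3, and 2 and 4. None of these markers was at 0 in all libraries, and their part in the receptor results was not tested. In bulk liver, fewer cells of a type and less RNA per cell cannot be told apart. The library of vehicle replicate 1 stands apart by some fat marker genes: Ucp1 was 1388 CPM against at most 0.576 CPM elsewhere, Adipoq 161 against at most 0.0784, and Plin1 273 against at most 0.107. Brown adipocyte markers summed to 2090 CPM there and at most 142 elsewhere, and adipocyte markers to 8758 and at most 10331. Of these lists, Pck1, Car3 and Elovl3 lay within the range of the other libraries. Ucp1 was at 0 in 10 of the 24 libraries and Adipoq in 13. Receptor results that it moves are given with and without it.

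Per length, Hnf4a was the most abundant of the 10 in vehicle livers, at 120 ± 13.1 CPM per kb of exon (SD, n = 8). Rxra followed at 78.5 ± 6.62, Nr1i2 at 40.6 ± 5.03, Nr1i3 at 28.4 ± 5.87 and Nr5a2 at 20.4 ± 2.89 CPM per kb. Below them came Pparg at 18.0 ± 6.25, Thrb at 12.0 ± 1.28, Esrra at 4.88 ± 1.74 and Esr1 at 2.73 ± 0.519 CPM per kb, and Ppard was last at 0.0678 ± 0.091. The ranges of Hnf4a and Rxra did not overlap each other, nor did that of Rxra overlap that of Nr1i2. Neighbours whose ranges overlapped were Nr1i2 and Nr1i3, Nr1i3 and Nr5a2, and Nr5a2 and Pparg. Without vehicle replicate 1, where Nr1i2 was at 28.8 CPM per kb, the ranges of Nr1i2 and Nr1i3 did not overlap, and the others still did. Both genes of a pair were measured in the same livers, so overlapping ranges do not settle their order. Within each vehicle liver Nr1i2 lay above Nr1i3 and Nr1i3 above Nr5a2. Nr5a2 lay above Pparg in all vehicle livers but replicate 1. These orders were not tested. Pparg (13.5 to 33 CPM per kb) and Thrb (9.32 to 13.2) did not overlap, nor did Thrb and Esrra (3.74 to 9.12), and Esrra met Esr1 (2.23 to 3.74) at its lower end. At 4 h Nr1i3 had dropped to 7.33 ± 1.4 CPM per kb, below Nr1i2 (57.5 ± 9.64) and Nr5a2 (27.9 ± 2.73), and its range of 4.91 to 9.19 CPM per kb overlapped that of Thrb (7.42 to 9.46). The length used for Nr1i3 is uncertain: 74.9% of its 4.41 kb of exon overlaps Tomm40l on the other strand, a gene not analysed here. Strand use in counting is not given in the sources used here, so reads of the 2 genes cannot be told apart.

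**Figure D1:**
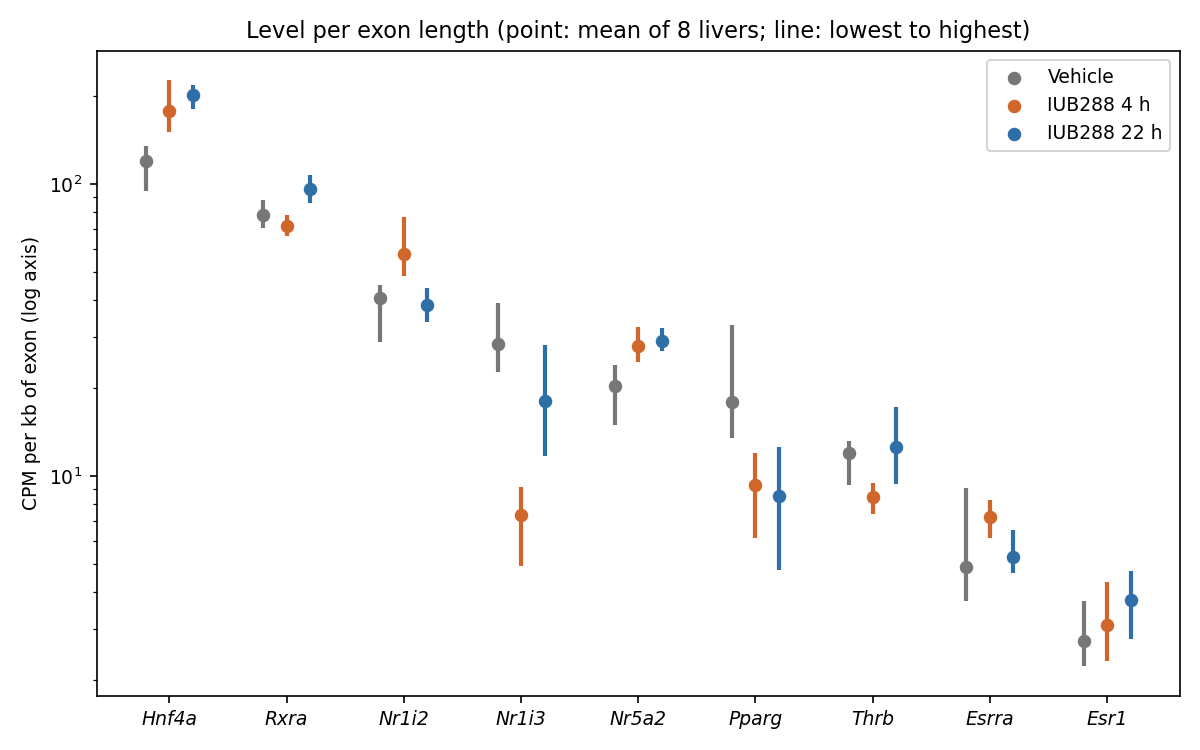
Level per kb of exon on a log axis for 9 receptor genes in vehicle, IUB288 4 h and IUB288 22 h livers; points are means of 8 livers and lines run from the lowest to the highest liver. Ppard, with livers at 0, is left out. Hnf4a stands highest in each group, and Nr1i3 drops from 28.4 to 7.33 CPM per kb at 4 h.

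At 4 h, 4 of the 10 receptors were higher than vehicle (Hnf4a, Nr1i2, Nr5a2, Esrra), 3 were lower (Nr1i3, Thrb, Pparg) and 3 did not pass the test (Rxra, Esr1, Ppard). The test was limma-voom with p-values adjusted by Benjamini-Hochberg over all genes and a threshold of 0.05. Of all 11508 genes tested, 21.7% were called higher and 22.5% lower, so calls were common, and counts in any gene list are to be read against these shares and those for 22 h. The CPM of treated and vehicle livers did not overlap for 5 receptors, against 16.1% of all genes. At 22 h, 4 were higher (Hnf4a, Nr5a2, Rxra, Esr1), 2 lower (Nr1i3, Pparg) and 4 not called, against 17.6% of all genes higher and 19.2% lower. The groups did not overlap for 3 of them, against 7.41% of all genes. Between 22 h and 4 h, 3 receptors were higher at 22 h (Nr1i3, Rxra, Thrb) and 2 lower (Nr1i2, Esrra), against 14.3% and 15% of all genes. Groups did not overlap for 3 receptors in this comparison, against 10.7%. The median log2 fold change of the 10 was 0.04 at 4 h, 0.09 at 22 h and 0.13 for 22 h against 4 h, beside -0.07, -0.02 and -0.02 over all genes. Without vehicle replicate 1 the numbers called were 8 at 4 h, 7 at 22 h and 5 for 22 h against 4 h. The medians of the 10 were then 0.25, 0.28 and 0.13.

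**Figure D2:**
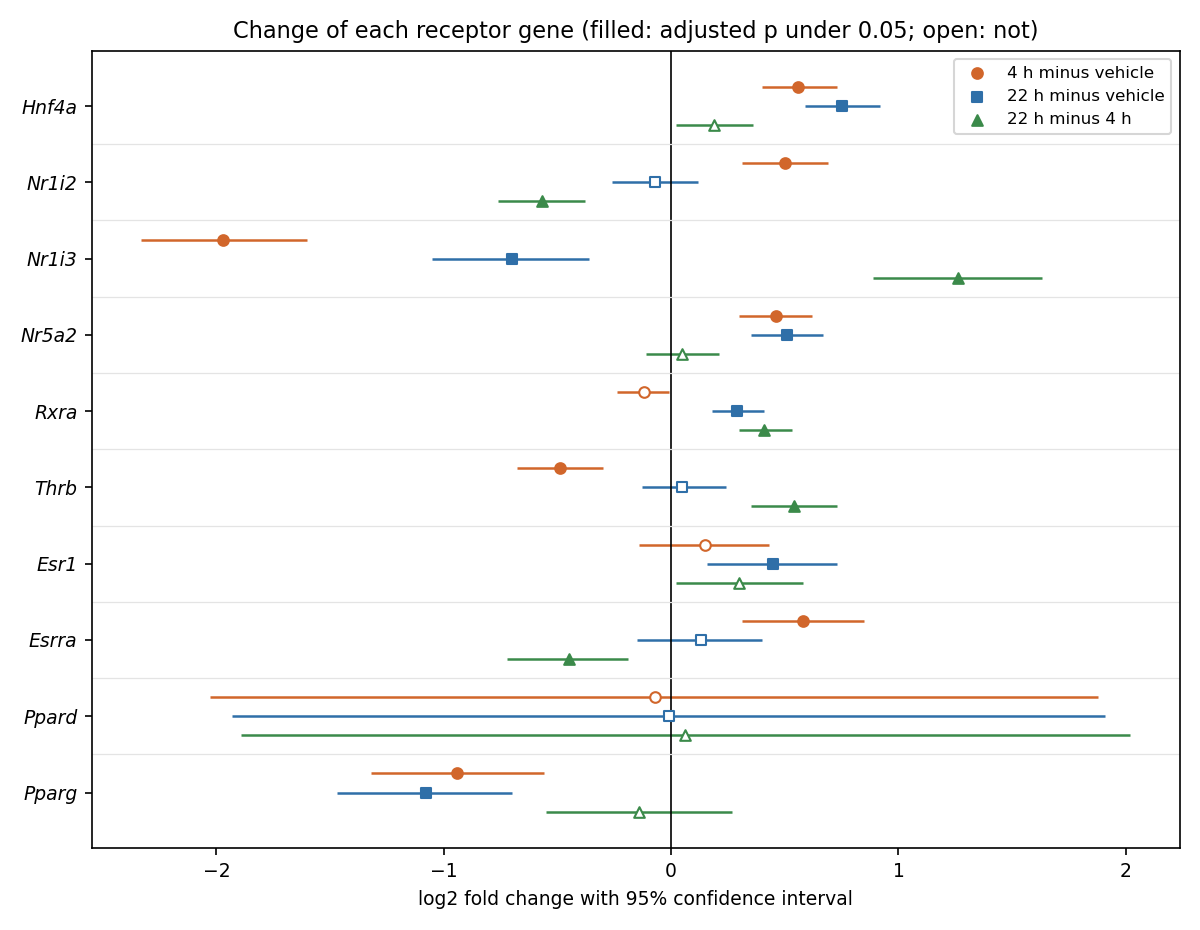
Log2 fold change of each receptor gene with its 95% confidence interval in the 3 comparisons; filled symbols passed an adjusted p of 0.05 and open ones did not. Hnf4a and Nr5a2 sit to the right of 0 in both comparisons with vehicle, Nr1i3 and Pparg to the left, and the intervals of Ppard span about 2 log2 units on each side.

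Hnf4a, the main identity factor of hepatocytes, rose at both times. Its level ran from 457 to 652 CPM in vehicle livers (median 584), from 730 to 1095 at 4 h (median 814) and from 875 to 1055 at 22 h (median 987). Every treated liver lay above every vehicle liver at both times, while the 4 h and 22 h ranges overlapped. The log2 fold change was 0.56 ± 0.08 (SE) at 4 h (limma-voom adjusted p = 2.86e-06) and 0.75 ± 0.08 at 22 h (adjusted p = 1.18e-07), in 8 of 8 livers each time. The difference of 0.19 ± 0.08 between 22 h and 4 h did not pass the test (adjusted p = 0.0873). That result depended on the setting: the difference passed in 5 other processing settings, and without IUB288 4 h replicate 4 (0.24, adjusted p = 0.017). The gene lies on chromosome 2 (GRCm38 2:163506808-163572910, plus strand), and no other annotated gene overlaps its exons.

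Of 17 genes known as HNF4A targets, 4 were higher and 6 lower than vehicle at 4 h, and 4 higher and 5 lower at 22 h, with medians of -0.20 and -0.12 beside -0.07 and -0.02 over all genes. Over all genes 21.7% were higher and 22.5% lower at 4 h, and 17.6% and 19.2% at 22 h. Without vehicle replicate 1, 4 targets were higher and 8 lower at 4 h. Apoa1, the main protein of HDL, fell by 1.12 ± 0.13 on the log2 scale at 4 h (adjusted p = 1.1e-07), and its change at 22 h was -1.30 ± 0.13 (adjusted p = 2.98e-08). Serpina1a, an alpha-1 antitrypsin gene, rose by 0.71 ± 0.11 and 1.01 ± 0.11 (adjusted p = 4.73e-06 and 8.61e-08). G6pc, the last step of glucose output, rose by 2.40 ± 0.31 at 4 h (adjusted p = 6.41e-07) and had a change of 0.41 ± 0.30 at 22 h that did not pass the test (adjusted p = 0.297). Serpina1a has near-identical copies, so its counts are uncertain.

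Nr5a2, which encodes LRH-1, rose by nearly the same amount at 4 h and 22 h. Vehicle livers ran from 88.3 to 142 CPM (median 123), 4 h livers from 145 to 191 (median 157) and 22 h livers from 158 to 190 (median 166). All treated livers lay above all vehicle livers at both times. On the log2 scale Nr5a2 rose by 0.46 at 4 h (adjusted p = 3.11e-05) and 0.51 at 22 h (adjusted p = 1.84e-05), and the difference between 22 h and 4 h was 0.05 (adjusted p = 0.669). The gene lies at GRCm38 1:136842571-136960448 on the minus strand. Of 7 LRH-1 targets tested, 2 were higher and 4 lower at 4 h, and 2 higher and 1 lower at 22 h, or 1 and 1 at 22 h without vehicle replicate 1. Abcg5, a sterol exporter, was higher by 1.33 ± 0.13 at 4 h and 1.31 ± 0.13 at 22 h (adjusted p = 4.09e-09 and 2.01e-08). Nr0b2 (SHP), a repressor of bile acid synthesis, changed by -1.87 ± 0.32 at 4 h (adjusted p = 3.26e-05) and was 2.35 ± 0.31 higher at 22 h than at 4 h (adjusted p = 1.63e-06).

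**Figure D3:**
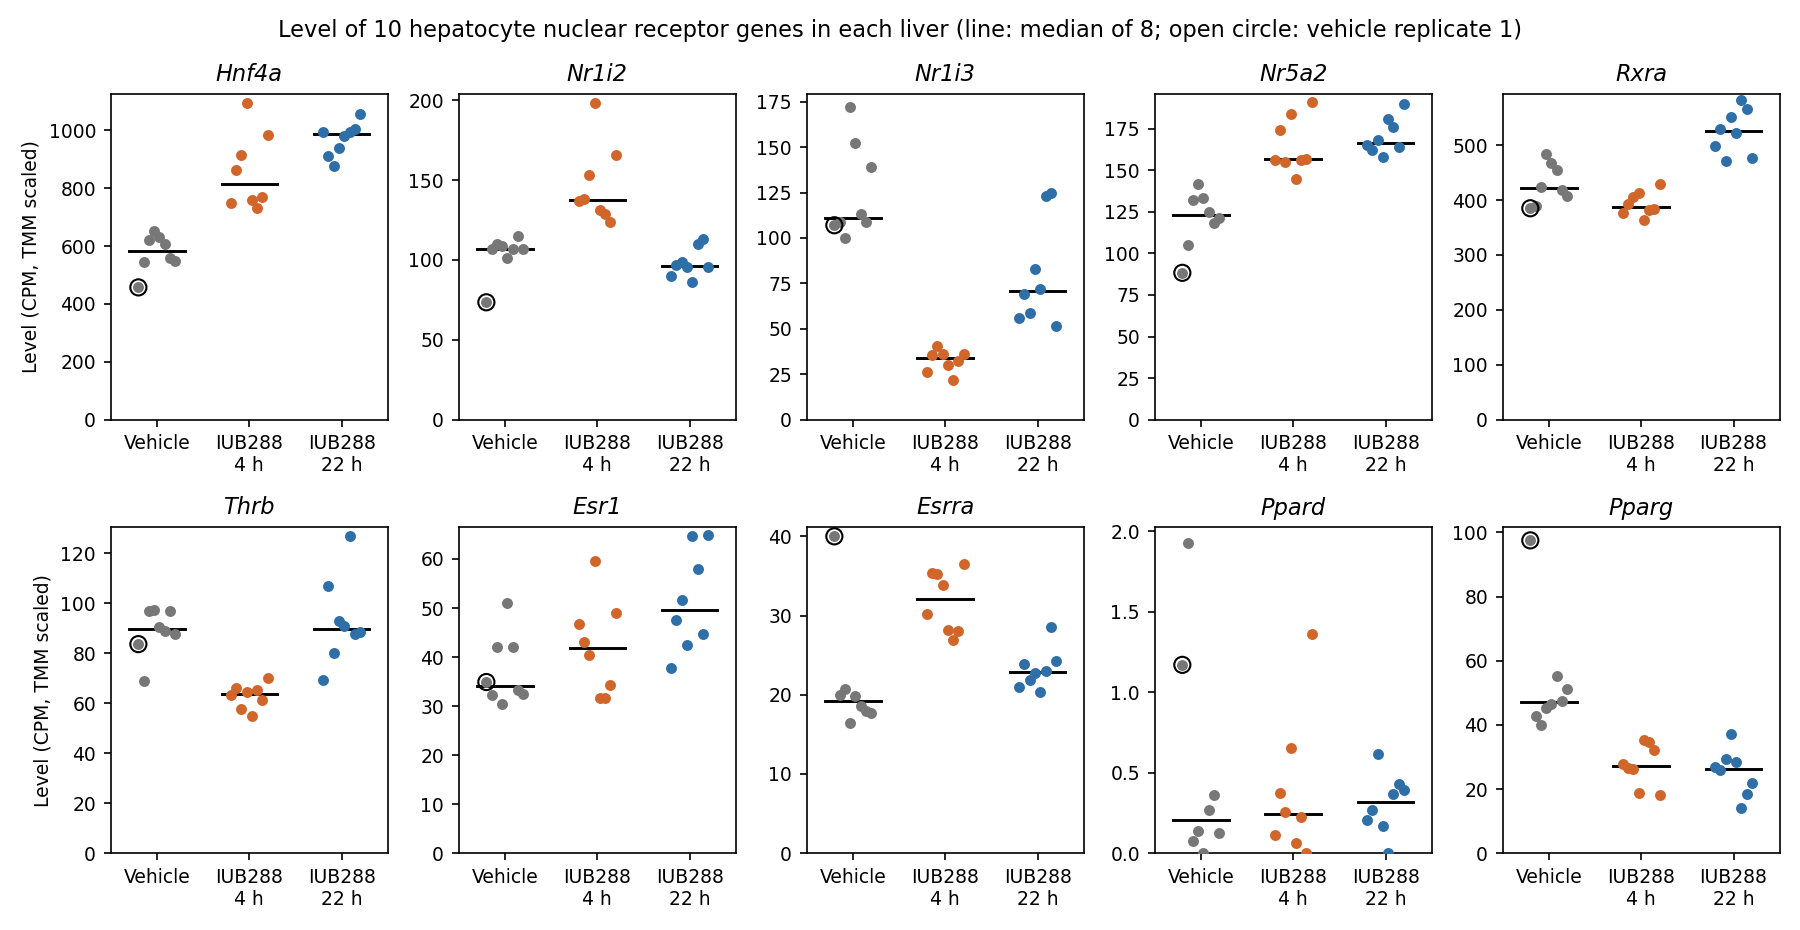
CPM (TMM scaled) of the 10 receptor genes in each of the 24 livers, by group; points are livers, lines are medians of 8, and the open circle marks vehicle replicate 1. Nr1i3 runs from 21.7 to 40.5 CPM at 4 h against 100 to 172 in vehicle livers, and vehicle replicate 1 stands highest for Pparg (97.5 CPM) and Esrra (40.0 CPM).

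Nr1i3 (CAR), the receptor behind phenobarbital induction, showed the largest change of the 10. It ran from 100 to 172 CPM in vehicle livers (median 111), from 21.7 to 40.5 at 4 h (median 33.9) and from 51.8 to 125 at 22 h (median 70.6). The 4 h livers lay below all others, and the 22 h livers overlapped the vehicle range, with 2 of the 8 above 100 CPM. Its log2 fold change was -1.97 ± 0.18 at 4 h (adjusted p = 2.15e-09), a level 3.91-fold lower than vehicle, and -0.70 ± 0.17 at 22 h (adjusted p = 0.00191). The level at 22 h was 1.26 ± 0.18 above that at 4 h on the log2 scale (adjusted p = 4.47e-06). The gene lies at GRCm38 1:171213970-171220701 on the plus strand. Tomm40l, on the other strand, overlaps 74.9% of its exon length, and the strand setting is not given. The counts and changes of Nr1i3 could therefore include reads of Tomm40l.

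Nr1i2 (PXR), the partner of CAR in drug sensing, was higher at 4 h and was not called at 22 h. Vehicle livers ran from 73.5 to 115 CPM (median 107), 4 h livers from 124 to 198 (median 137) and 22 h livers from 86.3 to 113 (median 96.5). All 4 h livers lay above all vehicle and all 22 h livers. Nr1i2 changed on the log2 scale by 0.50 ± 0.09 at 4 h (adjusted p = 8.59e-05), the value at 22 h was -0.07 (adjusted p = 0.592), and the difference between them was -0.57 (adjusted p = 2.61e-05). The lowest vehicle value, 73.5 CPM, is replicate 1, and without it the vehicle livers ran from 101 to 115 CPM, with 6 of the 8 livers at 22 h below them. The change was then 0.43 at 4 h (adjusted p = 8.95e-05) and -0.14 at 22 h (adjusted p = 0.181). The gene lies at GRCm38 16:38248323-38294824 on the minus strand.

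Of 21 genes listed as PXR and CAR targets, 4 were higher and 8 lower than vehicle at 4 h, and 6 higher and 8 lower at 22 h. The medians were -0.32 and -0.53, beside -0.07 and -0.02 over all genes, and without vehicle replicate 1 they were -0.26 and -0.25 with the same numbers called. Ugt1a1, which conjugates bilirubin, changed by -1.32 ± 0.12 at 4 h (adjusted p = 1.66e-09) and -1.10 ± 0.12 at 22 h (adjusted p = 1.06e-07). Ces2a, a carboxylesterase, changed by -0.92 ± 0.11 and -1.0 ± 0.11 (adjusted p = 2.08e-07 and 1.85e-07). Cyp2a5, a coumarin hydroxylase, rose instead, by 0.98 ± 0.17 and 1.63 ± 0.18 (adjusted p = 5.4e-05 and 1.37e-07). Cyp3a13, a cytochrome P450 of the drug-clearing family, was 0.48 ± 0.11 higher at 22 h than at 4 h (adjusted p = 0.00101). These enzymes belong to families with close copies or shared exons, and reads could be split between them.

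Rxra (GRCm38 2:27676440-27762957, plus strand), the common heterodimer partner, was higher at 22 h than at 4 h. It ran from 385 to 484 CPM in vehicle livers (median 421), from 363 to 429 at 4 h (median 388) and from 471 to 583 at 22 h (median 526). The 22 h livers lay above all 4 h livers and overlapped the vehicle livers at the edge. The log2 fold change was -0.12 at 4 h, which did not pass the test (adjusted p = 0.0813), and 0.29 at 22 h (adjusted p = 0.000304). The difference between 22 h and 4 h was 0.41 (adjusted p = 2.61e-06). The 4 h call depended on the setting: without vehicle replicate 1 it was -0.14 with an adjusted p of 0.0422, and without vehicle replicate 2 the adjusted p was 0.049.

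Thrb (GRCm38 14:17660261-18038090, plus strand), the main thyroid hormone receptor of hepatocytes, was lower than vehicle at 4 h and was not called at 22 h. Vehicle livers ran from 69.0 to 97.4 CPM (median 89.9), 4 h livers from 54.9 to 70.1 (median 63.9) and 22 h livers from 69.4 to 127 (median 89.6). The ranges at 4 h and in vehicle livers overlapped by the single lowest vehicle liver. Thrb changed on the log2 scale by -0.49 at 4 h (adjusted p = 0.000115) and 0.05 at 22 h (adjusted p = 0.678), with a difference of 0.54 between the times (adjusted p = 4.85e-05). Thra, the other thyroid hormone receptor, changed by -0.73 ± 0.13 at 4 h (adjusted p = 6.39e-05).

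Of 10 genes of thyroid hormone response and handling, 1 was higher and 4 lower at 4 h, and 2 higher and 5 lower at 22 h. Without vehicle replicate 1 the counts were 2 and 4 at 4 h and 2 and 6 at 22 h. Thrsp, a lipogenic factor induced by thyroid hormone, changed by -2.02 ± 0.29 and -3.16 ± 0.30 (adjusted p = 3.39e-06 and 1.47e-08). Me1, which supplies NADPH for fat synthesis, changed by -0.67 ± 0.13 and -1.09 ± 0.13 (adjusted p = 0.000237 and 9.55e-07). Pck1, the entry step of gluconeogenesis and also on this list, rose by 2.39 ± 0.20 and 1.5 ± 0.19 (adjusted p = 3.47e-10 and 1.5e-06). Of 9 genes of retinoid handling, 1 was higher and 4 lower at 4 h, and 3 higher and 4 lower at 22 h. Dhrs3, a retinaldehyde reductase induced by retinoic acid, turned direction: its change was -0.52 ± 0.07 at 4 h and 0.52 ± 0.07 at 22 h (adjusted p = 1.49e-06 and 3.47e-06). Rdh11 and Rdh16, retinol dehydrogenases, changed by -0.80 ± 0.13 and -0.54 ± 0.09 at 4 h and by -1.18 ± 0.13 and -0.70 ± 0.09 at 22 h.

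Esr1 (GRCm38 10:4611593-5005614, plus strand), the oestrogen receptor of hepatocytes, was higher at 22 h. It ran from 30.4 to 51.1 CPM in vehicle livers (median 34.1), from 31.7 to 59.5 at 4 h (median 41.7) and from 37.7 to 64.8 at 22 h (median 49.7), and all 3 ranges overlapped. The log2 fold change was 0.15 at 4 h (adjusted p = 0.41) and 0.45 at 22 h (adjusted p = 0.0129), and the difference of 0.30 between the times did not pass the test (adjusted p = 0.101). When livers were divided by the mouse numbers in the sample descriptions, with 4 per group on each side, that difference was -0.08 for lower numbers and 0.67 for higher numbers, and the change at 4 h was 0.44 and -0.11. Other receptor changes that were not called turned sign as well, such as that of Pparg from 4 h to 22 h at 0.27 and -0.53, and none that was called did. Of 4 tested genes of oestrogen handling and response, 1 was lower at 4 h: Hsd17b2, which inactivates oestradiol, at -1.16 ± 0.13 (adjusted p = 4.19e-08).

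Esrra (GRCm38 19:6910977-6921813, minus strand), an orphan receptor that drives mitochondrial genes, rose at 4 h. It ran from 16.4 to 40.0 CPM in vehicle livers (median 19.2), from 26.9 to 36.5 at 4 h (median 32.0) and from 20.4 to 28.6 at 22 h (median 22.9). The vehicle range is stretched by replicate 1, and the other 7 vehicle livers lay between 16.4 and 20.7 CPM, below all 4 h livers. With all livers, the log2 fold change was 0.58 ± 0.13 at 4 h (adjusted p = 0.000812) and 0.13 at 22 h (adjusted p = 0.494), and the difference was -0.45 (adjusted p = 0.00825). Without vehicle replicate 1 it was 0.75 at 4 h (adjusted p = 5.28e-08) and 0.30 at 22 h, which then passed the test (adjusted p = 0.0083). Of 8 ERR targets tested, 2 were higher and 3 lower at 4 h, and 0 higher and 4 lower at 22 h. Without vehicle replicate 1 these counts were 3 and 1 at 4 h and 2 and 3 at 22 h. Mfn2, a mitochondrial fusion protein, changed by -0.34 ± 0.09 at 22 h (adjusted p = 0.00402). Mir6990, on the same strand, covers 2.07% of the exon length of Esrra and Trmt112, on the other strand, 1.66%.

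Pparg (GRCm38 6:115360951-115490399, plus strand), the fat-storage receptor that is raised in fatty liver, was lower at both times. It ran from 40.0 to 97.5 CPM in vehicle livers (median 47), from 18.1 to 35.4 at 4 h (median 27.1) and from 14.1 to 37.3 at 22 h (median 26.3). All treated livers lay below all vehicle livers. Log2 fold changes of Pparg were -0.94 ± 0.19 at 4 h (adjusted p = 0.000191) and -1.08 at 22 h (adjusted p = 8.92e-05), with -0.14 between the times (adjusted p = 0.645). The highest vehicle value, 97.5 CPM, is replicate 1, the library with the fat marker genes, and the next was 55.1 CPM. Without it the changes were -0.80 (adjusted p = 0.000189) and -0.94 (adjusted p = 6.74e-05).

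Of 9 genes listed as PPARG targets in fatty liver, 0 were higher and 5 lower at 4 h, and 0 higher and 6 lower at 22 h. The medians were -0.64 and -0.89, beside -0.07 and -0.02 over all genes, and without vehicle replicate 1 they were -0.49 and -0.79, with 5 lower at 4 h and 6 lower and 1 higher at 22 h. Cidec, a protein that enlarges lipid droplets, changed by -1.30 ± 0.25 at 4 h (adjusted p = 0.000149) and -1.98 ± 0.26 at 22 h (adjusted p = 2.49e-06). G0s2, an inhibitor of fat breakdown, changed by -0.89 ± 0.21 at 22 h (adjusted p = 0.00183). Aqp7, a glycerol channel, changed by -3.24 ± 0.89 at 4 h (adjusted p = 0.00466), and by -2.62 (adjusted p = 0.000575) without vehicle replicate 1.

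Ppard (GRCm38 17:28232700-28301474, plus strand), a fatty acid receptor, was at the edge of detection. Its counts ran from 0 to 68 per library, with a median of 7.5, and 3 of the 24 libraries had 0. The level was 0 to 1.93 CPM in vehicle livers, 0 to 1.36 at 4 h and 0 to 0.616 at 22 h, all overlapping. Its log2 fold change at 4 h was -0.07 with a 95% confidence interval from -2.03 to 1.88, so a change was not detectable at this depth. Of 8 targets of PPARA and PPARD, 1 was higher and 4 lower at 4 h, and 1 higher and 3 lower at 22 h, or 1 and 4 at 22 h without vehicle replicate 1. Vnn1, a pantetheinase, changed by -0.83 ± 0.11 and -0.77 ± 0.11 (adjusted p = 1.28e-06 and 9.62e-06).

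Other nuclear receptors in the table changed in both directions at 4 h. Of 31 tested, 6 were higher, 11 lower and 14 not called, with a median of -0.23. At 22 h the counts were 6, 4 and 21. Without vehicle replicate 1 they were 7 higher and 13 lower at 4 h, and 8 and 5 at 22 h. The early-response receptors of the NR4A group moved most, with Nr4a3 at 0.865 to 5.15 CPM in vehicle livers and 29.6 to 45.3 at 4 h. Its log2 fold change was 4.63 ± 0.25 at 4 h (adjusted p = 2.29e-13), and Nr4a1 and Nr4a2 rose by 3.01 ± 0.27 and 3.15 ± 0.23. Ppara, the fatty acid receptor of hepatocytes, was lower at both times, by -0.59 ± 0.08 and -0.40 ± 0.08 (adjusted p = 1.49e-06 and 0.000445). Rora, an activator of the clock gene Arntl, rose at both times, by 0.77 ± 0.07 and 0.40 ± 0.07 (adjusted p = 6.19e-09 and 0.000193). Nr1h4 (FXR), the bile acid receptor, and Nr3c2, the mineralocorticoid receptor, changed by -0.46 ± 0.07 and -0.92 ± 0.10 at 4 h (adjusted p = 4.34e-06 and 4.38e-08). Both were higher at 22 h than at 4 h, by 0.62 ± 0.07 and 0.98 ± 0.10. Of the RXR and RAR forms beside Rxra, Rara ran from 23.6 to 26.9 CPM in vehicle livers, and the others were lower. Rxrg changed by -0.90 ± 0.18 at 4 h and Rarb by -0.81 ± 0.15 at 22 h (adjusted p = 0.000196 and 0.000126).

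**Figure D4:**
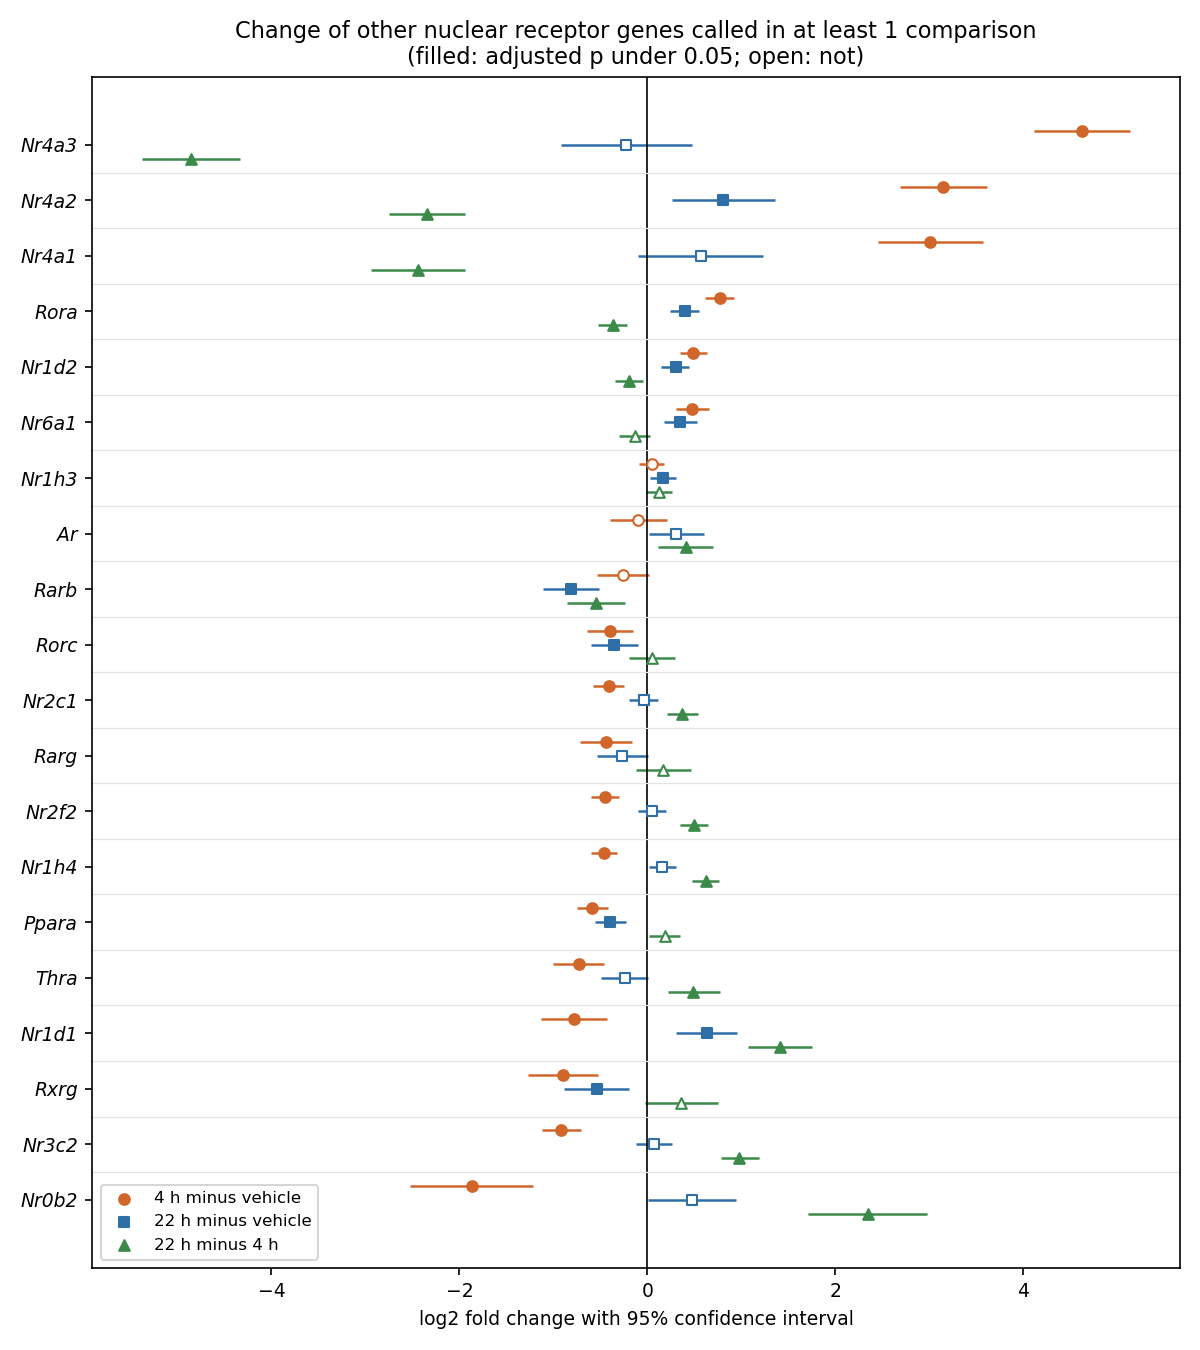
Log2 fold change with 95% confidence interval of the 20 other nuclear receptor genes called in at least 1 comparison, in order of their change at 4 h; filled symbols passed an adjusted p of 0.05. The 3 NR4A genes stand far to the right at 4 h, and Nr0b2 (-1.87) and Nr3c2 (-0.92) are lowest at 4 h.

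Coregulators, the proteins through which receptors switch genes on or off, were mostly higher at 4 h. Of 16 tested, 12 were higher and 2 lower at 4 h (median 0.32), 7 higher and 2 lower at 22 h (median 0.14), and 1 higher and 8 lower at 22 h than at 4 h. Without vehicle replicate 1, 12 were higher and 3 lower at 4 h, and 8 and 2 at 22 h. Ppargc1a (PGC-1 alpha), the coactivator of HNF4A and the ERRs in fasting, rose by 2.28 ± 0.14 at 4 h (adjusted p = 1.47e-12) and was at 0.04 ± 0.15 at 22 h (adjusted p = 0.856). Med1, the Mediator subunit that receptors bind, rose by 0.60 ± 0.06 and 0.33 ± 0.06 (adjusted p = 3.55e-09 and 8.29e-05). The corepressor Nrip1 changed by -0.72 ± 0.08 from 4 h to 22 h (adjusted p = 4.48e-08). Among 15 other hepatocyte transcription factors, 3 were higher and 6 lower at 4 h, and 4 higher and 2 lower at 22 h. Without vehicle replicate 1 these counts were 3 and 7 at 4 h and 4 and 4 at 22 h. Foxa3, a pioneer factor, rose by 0.83 ± 0.13 and 0.84 ± 0.13 (adjusted p = 8.8e-06 and 1.82e-05), and Cebpa changed by -0.51 ± 0.07 at 4 h (adjusted p = 1.24e-06).

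Clock genes, which turn over within a day, were among those called. Of 16 tested, 6 were higher and 5 lower than vehicle at 4 h, with 7 not overlapping, and 4 were higher and 5 lower at 22 h, with 0 not overlapping. Over all genes the shares were 21.7% higher, 22.5% lower and 16.1% not overlapping at 4 h, and 17.6%, 19.2% and 7.41% at 22 h. Nfil3, a repressor of clock output, was higher by 1.84 ± 0.16 at 4 h (adjusted p = 1.1e-09), and Hlf, an activator of the same output, changed by -0.86 ± 0.07 (adjusted p = 2.42e-10). Dbp, another output activator, was 1.36 ± 0.12 higher at 22 h than at 4 h (adjusted p = 1.53e-09). Their part in the 4 h values of Nr1i3, Nr1i2, Thrb and Esrra was not tested, and time of day is not given in the labels.

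For each receptor called in a comparison, the genes most like it over the 24 livers were found by the root mean square difference of centred log2 CPM, among 6509 genes of at least 5 CPM on average. The nearest to Hnf4a were Serpind1 and Sdc2, both at 0.11, where Hnf4a itself spread by 0.35 around its mean. Man1a was near Nr5a2, at 0.10 (own spread 0.27). Nearest to Nr1i3 were Gm4952 at 0.35 and Nmrk1 at 0.37 (own spread 0.88). For Nr1i2 they were Ube2b and Wbp1l at 0.14 (own spread 0.31), and near Rxra was Zscan26 at 0.09 (own spread 0.20). For Thrb they were Hsd3b3 at 0.14 and Slc17a3 at 0.15 (own spread 0.30), and for Esrra Micall1 at 0.15 and Ndrg3 at 0.16 (own spread 0.36). Near Pparg was Niban2 at 0.26 (own spread 0.61), and for Esr1 they were Slc30a6 at 0.21 and Papss2 at 0.22 (own spread 0.33). These livers share 3 treatment groups, and the likeness is a description without a test.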

How the data were processed

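RNA-seq of 24 livers was used, 8 mice in each of 3 groups. The deposited table holds whole-number read counts per gene, per the file headers and values (no value among 536520 was below 0 or not whole). The tools cutadapt and GSNAP and the build GRCm38 are listed, without their roles, per the submitters' processing notes; versions, counting tool, annotation and strand setting are not given in the sources used here. The check of units did not accept the table's layout as counts, so limma-voom (limma 3.58.1, R 4.3.3) was used, and edgeR and DESeq2 were not. Genes were kept with a total of at least 15 counts and, in at least 8 libraries, a CPM worth 10 counts at the median library size. This left 11508. Scaling was TMM (trims of 30% and 5%), and 1 model of 3 group means had 21 residual degrees of freedom. The table stops at Entrez number 50932 in text order, and 33.1% of 21900 RefSeq protein-coding genes sort after it and were not analysed here. The 10 receptors and all gene lists were chosen with earlier results of these data known. The named genes are all 10 receptors, all other nuclear receptors called, and in each other list the 2 genes of smallest p per comparison at 1 CPM or more. Exon lengths came from GENCODE vM21 (GRCm38). P-values set the difference between group means against the spread between mice, estimated over all 3 groups. Some genes that the rule names are not reported here.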

Additional observations from a re-analysis of the deposited data

Results flagged for a closer look

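In 3 of the 30 receptor and group combinations of 8 livers, vehicle replicate 1 lay farther from the rest than Dixon's 95% criterion for 8 values allows, and chance would give about 1 in 20. Nr1i2 was lowest there at 73.5 CPM (next 101), Esrra highest at 40.0 CPM (next 20.7) and Pparg highest at 97.5 CPM (next 55.1).

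By limma-voom, 5 receptors differed between the 22 h and 4 h livers, tested as the 22 h minus 4 h contrast. Both changes from vehicle use the same vehicle livers, all taken at 22 h, so vehicle cancels out of this contrast. On the log2 scale these differences were -0.57 for Nr1i2, 1.26 for Nr1i3, 0.41 for Rxra, 0.54 for Thrb and -0.45 for Esrra.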

How the results depend on the processing

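Across other scalings, filters, weights and fits, and with each liver left out in turn, the numbers of receptors called were 7 to 8 at 4 h, 6 to 7 at 22 h and 5 to 7 for 22 h against 4 h. Of 1014 alternative values, 997 kept the call or its absence, 17 gained a call and 0 lost one. No called change reversed, and 24 changes with no call either way changed sign, among them those of Ppard at 4 h and Thrb at 22 h. The gains were Rxra at 4 h, Esrra at 22 h, and Esr1 and Hnf4a for 22 h against 4 h. Hnf4a gained a call in 5 other settings (lowest adjusted p = 0.0116), among them upper quartile scaling (0.27, adjusted p = 0.0195). It also gained one with 1 liver left out. Rxra gained a call in 4 settings (-0.17, adjusted p = 0.00215 with library totals alone) and in 2 omissions of a liver. Esrra gained one with sample quality weights (0.25, adjusted p = 0.0408) and in 1 omission. Esr1 gained one with upper quartile scaling (0.39, adjusted p = 0.0302) and in 2 omissions. Upper quartile scaling raised the share of higher calls among all genes from 48.8% to 66.3% for 22 h against 4 h. Replicate numbers did not pair the livers: same-numbered deviations correlated at -0.219 to 0.134, and 4 of 24 livers correlated best with their own number. With the replicate block, 7, 6 and 5 receptors were called, as without it. The edgeR and DESeq2 alternatives were not run. Depth limits Ppard, with a median of 7.5 counts.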
